A study of Mus musculus with 8 samples.

Results

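The genes described here encode acute phase reactants of the mouse: the serum amyloid A genes Saa1, Saa2, Saa3 and Saa4, the orosomucoid genes Orm1, Orm2 and Orm3, the lipocalin gene Lcn2, and the pentraxin genes Apcs and Crp. They were chosen by name, 10 genes of the 45706 in the count table, and all 10 were among the 14645 genes with enough counts to be tested. Liver RNA was sequenced from 4 C57BL/6 mice labelled HuR KO and 4 C57BL/6 mice labelled HuR WT. HuR is the protein of the Elavl1 gene and binds RNA. The labels name no treatment and no inflammatory stimulus. Which part of Elavl1 was deleted, in which cells, and the age and sex of the animals are not given in the sources used here. Each library carries an animal number of its own, so the replicates were taken as separate mice and the p-values set group differences against the spread between them.

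Acute phase reactants are plasma proteins whose production by hepatocytes changes during infection, injury and tumour growth. Interleukin 6 acts on them through JAK kinases and the transcription factor STAT3, interleukin 1 and tumour necrosis factor act through NF-kB and C/EBP factors, and glucocorticoids add to both. In the mouse, Saa1, Saa2, Saa3, the Orm genes and Lcn2 are strongly inducible, Apcs is the main acute phase pentraxin, and Crp responds weakly. HuR is best known for binding AU- and U-rich stretches of mRNA, many of them in 3′ untranslated regions.

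The Elavl1 transcript stood at 49.4, 56.0, 49.1 and 45.6 CPM (reads as a share of the library's total, with TMM scaling between libraries) in KO replicates 1 to 4 and at 32.7, 45.7, 42.9 and 46.6 CPM in WT replicates 1 to 4, a log2 fold change of 0.25 (SE 0.11, edgeR adjusted p = 0.258). It was thus no lower under the KO label. The gene's count sums reads over all of its exons and the deleted part is not stated, so it does not check the labels, and every direction below is one between libraries labelled KO and libraries labelled WT. The libraries held between 18649618 and 31249286 counts in genes. WT replicate 3 stood apart from its group: its mean root-mean-square log2 CPM distance was 0.597 to the other libraries labelled WT and 0.586 to those labelled KO, and its nearest library was KO replicate 4. The animal numbers form a pair of series of unstated meaning, numbers 98 to 100 (KO replicates 3 and 4 and WT replicate 3) and numbers of 4 digits (the other libraries). Values within each series are therefore given beside the results of the members. Values without WT replicate 3 are given for the members and, for other named genes, where they change a call.

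None of the 10 acute phase genes passed the test between the groups, against a background of 3.69% of all tested genes called at an adjusted p under 0.05 (quasi-likelihood test of edgeR, Benjamini-Hochberg adjusted over 14645 genes), 2.32% higher and 1.37% lower under the KO label. At an unadjusted p under 0.05 there were 3, Saa3, Saa4 and Orm3, each with its lower mean in the libraries labelled KO, where 18.0% of all tested genes stood at that level and 8.84% stood there with the lower mean in KO. By DESeq2, Saa3 and Orm3 were called lower in the libraries labelled KO (adjusted p = 0.0362 and 0.0449), and by limma-voom none was called. Over all genes DESeq2 called 613 higher and 495 lower, where edgeR called 340 and 201. Without WT replicate 3 edgeR called the same 2 members lower, among 710 genes called higher and 534 lower. The other 8 members kept their sign and were not called. Their log2 fold changes were then −0.29 for Saa1, −1.65 for Saa2, −0.43 for Saa4, −0.72 for Orm1 and −1.02 for Orm2. Lcn2 had 1.14, Apcs 0.15 and Crp 0.35. With all 8 libraries, the log2 fold change was negative for 7 members, all Saa and Orm genes, and positive for Lcn2, Apcs and Crp. Its median over the members was −0.52, against −0.0046 over all tested genes. Saa3 was the 1 member whose groups did not overlap, where 11.2% of all tested genes had groups without overlap, 5% with KO lower and 6.19% with KO higher. Most members differed more between animals of 1 group than most genes of like level did, and Lcn2 stood higher relative to Saa1 in every liver labelled KO than in any labelled WT. That pair was found after the values were seen. Of the 45 pairs of members 7 had ratios without overlap, where 11.3% of all pairs of tested genes counted in every library did.

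**Figure D1:**
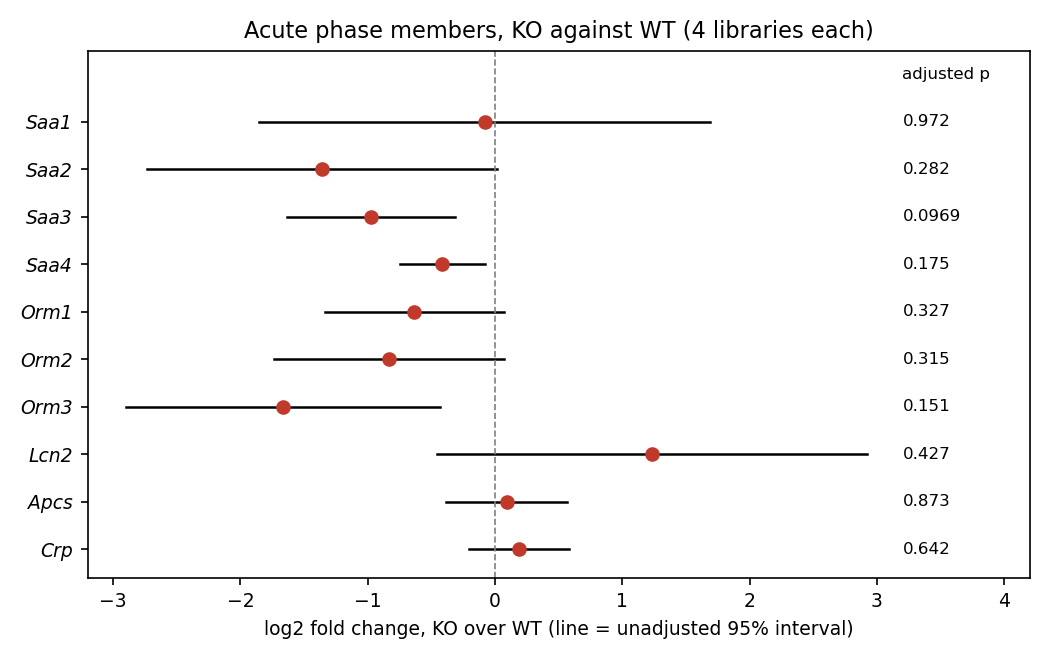
The log2 fold change of each acute phase gene, libraries labelled KO over libraries labelled WT (4 each), with its unadjusted 95% interval as a line and its edgeR adjusted p at the right. The Saa and Orm genes lie at or left of 0 and Lcn2 lies to the right with one of the widest intervals, and no adjusted p is under 0.05.

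The Saa genes lie side by side on mouse chromosome 7 (build mm10), Saa3 at 46711998 to 46715676, Saa4 at 46728017 to 46732543 and Saa1 at 46740501 to 46742980 on the minus strand, and Saa2 at 46751833 to 46754314 on the plus strand. Saa1 and Saa2 are head to head and are near copies: 95.1% of aligned coding bases and 94.8% of aligned bases in the 250 bases before their RefSeq starts were identical. The promoter windows are shown because the values of this pair can be read against how alike the genes are. The window of Saa1 is chr7:46742981-46743230 on the minus strand and that of Saa2 chr7:46751583-46751832 on the plus strand (RefSeq, GRCm38.p6), each written 5′ to 3′ on the gene's own strand, and the capitals mark the match to the C/EBP motif described below.
Saa1: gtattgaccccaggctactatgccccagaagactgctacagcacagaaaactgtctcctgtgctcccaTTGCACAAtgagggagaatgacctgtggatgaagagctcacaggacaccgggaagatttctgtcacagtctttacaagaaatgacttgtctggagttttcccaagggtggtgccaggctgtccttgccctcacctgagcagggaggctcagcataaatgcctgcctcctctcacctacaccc
Saa2: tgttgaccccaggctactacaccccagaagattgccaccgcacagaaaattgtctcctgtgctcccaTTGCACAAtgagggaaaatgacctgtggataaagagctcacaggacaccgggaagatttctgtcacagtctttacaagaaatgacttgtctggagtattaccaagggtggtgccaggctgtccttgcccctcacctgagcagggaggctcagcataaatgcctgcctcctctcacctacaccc

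Saa1 and Saa2 encode the acute phase apolipoproteins carried on high-density lipoprotein. Saa1 was at 44.5, 7.52, 35.0 and 9.74 CPM in KO replicates 1 to 4 and at 47.6, 13.97, 14.1 and 26.5 CPM in WT replicates 1 to 4. Each group held high and low livers and the groups overlapped over most of their range. The means were 24.2 ± 18.4 CPM in libraries labelled KO and 25.6 ± 15.9 CPM in those labelled WT (SD, n = 4 each), a log2 fold change of −0.08 (SE 0.73, edgeR adjusted p = 0.972). The 95% interval of the fold change ran from 0.277 to 3.23, so a difference of several fold in either direction was not detectable with this spread. The sign is not fixed by the data: the log2 fold change was −0.18 within the 4-digit series and 0.66 within the series 98 to 100, the second called in a fit of 3 libraries with 1 residual degree of freedom (edgeR adjusted p = 0.00423).

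Saa2 had 9.41, 3.155, 7.26 and 3.87 CPM in KO replicates 1 to 4 and 27.6, 12.7, 5.22 and 15.1 CPM in WT replicates 1 to 4. The groups overlapped through WT replicate 3 alone, whose level lay below that of KO replicates 1 and 3. The means were 5.92 ± 2.93 CPM labelled KO and 15.2 ± 9.31 CPM labelled WT, a log2 fold change of −1.36 (SE 0.58, edgeR adjusted p = 0.282, and 0.0948 without WT replicate 3). It was −1.57 within the 4-digit series and 0.09 within the series 98 to 100, where the group labelled WT is 1 library. Relative to its neighbour, Saa1 was at 4.73, 2.38, 4.82 and 2.51 times the CPM of Saa2 in livers labelled KO and at 1.72, 1.10, 2.70 and 1.76 times in livers labelled WT. The groups overlapped between WT replicate 3 and KO replicates 2 and 4. Saa1 and Saa2 together came to 30.1 ± 21.3 CPM labelled KO and 40.7 ± 24.8 CPM labelled WT, a ratio of means of 0.740.

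Counting limits these 2 genes more than the other Saa genes. Reads that map to several places were left out, and of all 50-base windows along the main transcript 14.8% of those of Saa1 and 9.12% of those of Saa2 also occur in another gene. With windows of 75 bases the shares were 4.67% and 1.04%. The read length is not given in the sources used here, so the share lost is not known.

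Saa3, made in the mouse by macrophages and adipocytes as well as liver, was the least abundant member. It had 1.74, 1.77, 1.32 and 1.28 CPM in KO replicates 1 to 4 and 4.52, 1.97, 2.08 and 3.49 CPM in those labelled WT, on 34 to 124 reads per library. Every liver labelled KO lay below every liver labelled WT, though KO replicate 2 and WT replicate 2 were close. The means were 1.53 ± 0.264 CPM labelled KO and 3.02 ± 1.22 CPM labelled WT, a log2 fold change of −0.98 (SE 0.31, edgeR adjusted p = 0.0969). That value was −0.92 within the 4-digit series and −0.68 within the series 98 to 100, and without WT replicate 3 it was −1.12 with an edgeR adjusted p of 0.0374.

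Saa4 encodes the constitutive serum amyloid A of plasma, which is little induced in the acute phase. It was at 128, 106, 113 and 93.7 CPM in libraries labelled KO and at 170, 103, 141 and 175 CPM in those labelled WT. The groups overlapped through WT replicate 2, the lowest of its group. The means were 110 ± 14.3 CPM labelled KO and 147 ± 33.0 CPM labelled WT, with a log2 fold change of −0.41 (SE 0.15, edgeR adjusted p = 0.175). Without WT replicate 2 it was −0.55 with an edgeR adjusted p of 0.0441, and it was −0.34 within the 4-digit series and −0.45, also called, in the 3 libraries of the series 98 to 100. Saa4 made up 69.7% to 89.5% of the summed Saa CPM labelled KO and 68.0% to 86.8% of that labelled WT. Most of the family's CPM was therefore Saa4, but CPM is not scaled for length. The exon length in the count table was 2015 bp for Saa4 and 531 to 610 bp for the other Saa genes. Per kilobase the means of Saa4, Saa1, Saa2 and Saa3 were 54.8, 40.0, 9.71 and 2.88 CPM labelled KO. Labelled WT they were 72.9, 42.2, 24.9 and 5.68 CPM. Saa4 did not hold most of the spread of the family's CPM in both groups. The SD between livers labelled KO was 14.3 CPM for Saa4, 21.3 CPM for Saa1 and Saa2 together and 34.7 CPM for all Saa genes. Among livers labelled WT these SDs were 33.0, 24.8 and 53.6 CPM.

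**Figure D2:**
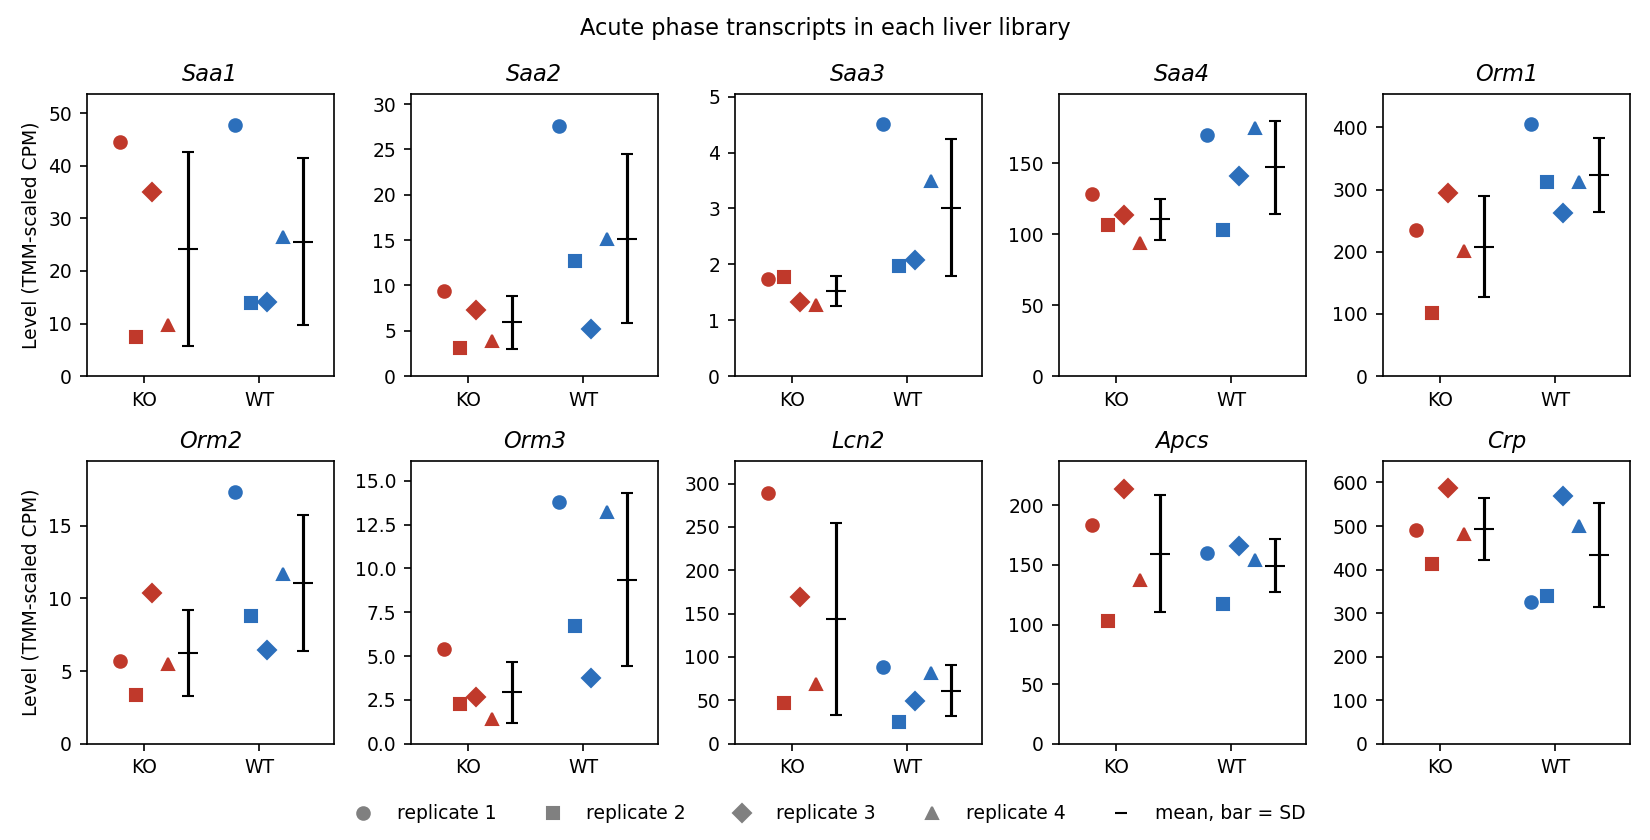
TMM-scaled CPM of each acute phase gene in each library, KO at the left and WT at the right of each panel, with marker shape giving the replicate and a bar for mean and SD (n = 4 each). Only in the Saa3 panel do all points labelled KO lie below all points labelled WT, and Saa1 and Lcn2 each span a wide range within both groups.

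The Orm genes encode orosomucoid, or alpha-1-acid glycoprotein, a heavily glycosylated plasma protein that binds basic drugs and lipids and modulates immune cells. They form a cluster on the plus strand of chromosome 4 (mm10), with Orm1 at 63344560 to 63348163, Orm3 at 63356162 to 63359511 and Orm2 at 63362449 to 63365878. Their coding sequences were alike, at 89.9% for Orm1 and Orm2, 88.0% for Orm2 and Orm3, and 86.1% for Orm1 and Orm3. The windows of 250 bases before the RefSeq starts of Orm2 (chr4:63362199-63362448, plus strand) and Orm3 (chr4:63355908-63356157, plus strand, both GRCm38.p6) were identical at 85.5% of aligned bases. They are shown to set them beside the Saa windows, with the same motif in capitals.
Orm2: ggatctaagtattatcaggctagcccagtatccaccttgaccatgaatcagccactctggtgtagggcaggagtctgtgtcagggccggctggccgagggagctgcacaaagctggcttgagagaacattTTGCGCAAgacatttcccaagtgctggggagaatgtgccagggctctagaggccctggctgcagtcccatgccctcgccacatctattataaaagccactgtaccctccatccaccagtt
Orm3: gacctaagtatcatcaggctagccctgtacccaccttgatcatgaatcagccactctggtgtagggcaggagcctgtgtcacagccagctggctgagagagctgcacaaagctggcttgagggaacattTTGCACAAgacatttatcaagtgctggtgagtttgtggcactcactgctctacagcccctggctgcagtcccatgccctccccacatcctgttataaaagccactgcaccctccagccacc

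Orm1 was the most abundant Orm gene by far, with 94.8% to 96.7% of the family's CPM in libraries labelled KO and 92.6% to 96.2% in those labelled WT. It was at 236, 102, 295 and 201 CPM labelled KO and at 405, 311, 262 and 313 CPM labelled WT. KO replicate 3 was the 1 library of its group that reached into the WT range, above WT replicate 3. The means were 208 ± 80.97 CPM labelled KO and 323 ± 59.9 CPM labelled WT, a log2 fold change of −0.63 (SE 0.30, edgeR adjusted p = 0.327). Within the 4-digit series it was −1.02, and within the series 98 to 100 it was −0.08.

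Orm2 was at 5.69, 3.33, 10.4 and 5.49 CPM in libraries labelled KO and at 17.3, 8.75, 6.48 and 11.6 CPM in those labelled WT. As for Orm1, KO replicate 3 was the library of its group inside the WT range, here above WT replicates 2 and 3. The means were 6.22 ± 2.97 CPM labelled KO and 11.05 ± 4.68 CPM labelled WT (log2 fold change −0.83, SE 0.39, edgeR adjusted p = 0.315). Within the 4-digit series the log2 fold change was −1.48 and was called (edgeR adjusted p = 0.0406), whereas within the series 98 to 100 it was 0.29.

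Orm3 showed the largest log2 fold change of the members, −1.67 (SE 0.53, edgeR adjusted p = 0.151). It was at 5.42, 2.25, 2.64 and 1.43 CPM labelled KO and at 13.8, 6.70, 3.73 and 13.2 CPM labelled WT. Only KO replicate 1 and WT replicate 3 crossed between the groups. The means were 2.94 ± 1.73 CPM labelled KO and 9.35 ± 4.93 CPM labelled WT, and the 95% interval of the fold change ran from 0.134 to 0.741. The log2 fold change was −1.55 within the 4-digit series and −0.88 within the series 98 to 100, and −1.93 without WT replicate 3 (edgeR adjusted p = 0.0430). Multi-mapping reads matter less for Orm3 than for its neighbours: 3.59% of its 50-base windows occur in another gene, against 20.4% for Orm1 and 22.7% for Orm2.

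Lcn2 encodes lipocalin 2, which binds bacterial siderophores and so withholds iron. It lies on chromosome 2 (mm10) at 32384633 to 32388252, minus strand. Its window chr2:32387740-32387989 (minus strand, GRCm38.p6) before the RefSeq start is given for comparison with those above, again with the C/EBP match in capitals. The RefSeq start lies inside the gene's span in the count table, so the window does too.
Lcn2: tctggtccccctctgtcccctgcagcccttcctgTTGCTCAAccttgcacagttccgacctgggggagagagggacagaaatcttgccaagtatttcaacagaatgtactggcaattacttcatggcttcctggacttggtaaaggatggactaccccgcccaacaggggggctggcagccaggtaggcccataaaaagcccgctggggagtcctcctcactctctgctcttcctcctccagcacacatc

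Lcn2 was at 289, 46.5, 170 and 68.3 CPM in libraries labelled KO and at 88.4, 25.5, 49.5 and 81.1 CPM in those labelled WT. KO replicates 1 and 3 lay above every library labelled WT, and KO replicates 2 and 4 lay inside the WT range. The highest liver labelled KO was 6.21 times the lowest, and the highest labelled WT 3.47 times the lowest. The means were 143 ± 111 CPM labelled KO and 61.1 ± 29.1 CPM labelled WT, with a log2 fold change of 1.23 (SE 0.70, edgeR adjusted p = 0.427) and a 95% interval of the fold change from 0.727 to 7.56. Leaving out KO replicate 1 gave 0.63. Within the 4-digit series it was 1.37 and not called, and within the series 98 to 100 it was 1.26 and called, again on 1 residual degree of freedom.

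Apcs encodes serum amyloid P component and Crp C-reactive protein, pentraxins that bind phosphocholine, chromatin and amyloid and activate complement. Both lie on chromosome 1 (mm10), Crp at 172698055 to 172833031 on the plus strand and Apcs at 172893961 to 172895041 on the minus strand. Apcs was at 184, 103, 214 and 137 CPM labelled KO and at 160, 117, 166 and 154 CPM labelled WT, with KO replicates 1 and 3 at the top and KO replicate 2 at the bottom of the overlapping groups. Its means were 160 ± 49.3 CPM labelled KO and 149.5 ± 22.0 CPM labelled WT, with a log2 fold change of 0.09 (SE 0.21, edgeR adjusted p = 0.873). Crp was at 491, 413, 588 and 482 CPM labelled KO and at 325, 339, 569 and 499 CPM labelled WT. Crp alone had WT replicate 1 as the lowest of its group. The means of Crp were 494 ± 71.7 CPM labelled KO and 433 ± 120.0 CPM labelled WT, a log2 fold change of 0.19 (SE 0.18, edgeR adjusted p = 0.642), and with WT replicate 3 left out it was 0.35, with WT replicate 1 left out 0.0689, neither called. The intervals of the fold change, 0.767 to 1.48 for Apcs and 0.870 to 1.49 for Crp, were the narrowest of the members together with that of Saa4. The within-series values were −0.0045 and 0.08 for Apcs and 0.22 and −0.09 for Crp, in the 4-digit series and the series 98 to 100.

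Set per kilobase of the exon length in the count table, the order of mean levels differed between the groups in the place of Lcn2 alone. Orm1 stood highest, at 269 ± 104 CPM per kilobase labelled KO and 417 ± 77.3 labelled WT. Apcs followed at 164 ± 50.8 and Crp at 143 ± 20.8 CPM per kilobase labelled KO, with 154 ± 22.7 and 126 ± 34.8 labelled WT, and these neighbours differed by less than their spread. Saa4, Lcn2 and Saa1 made a middle group, at 54.8, 54.6 and 40.0 CPM per kilobase labelled KO and at 72.9, 23.3 and 42.2 labelled WT. Saa2, Orm2, Orm3 and Saa3 were lowest, at 9.71, 8.03, 3.80 and 2.88 CPM per kilobase labelled KO and at 24.9, 14.3, 12.1 and 5.68 labelled WT. The mean level of Lcn2 per kilobase was above those of Saa1 and Saa2 in the libraries labelled KO and below both in those labelled WT, and in WT the gap to each was smaller than the spread. The exon length of Lcn2 in the count table, 2623 bp, joins several transcript models and is longer than its main transcript of 915 bp, and that of Crp, 3444 bp, is longer than 1695 bp, so both orders depend on that length. Per kilobase of main transcript, Lcn2 was at 157 ± 121 CPM labelled KO and 66.8 ± 31.8 CPM labelled WT, with means above those of Saa1 and Saa2 in both groups, in WT above Saa1 by less than the spread, where Saa1 was at 39.7 and 41.97 and Saa2 at 9.09 and 23.3 in the same order. Crp was then at 291 ± 42.3 CPM per kilobase labelled KO and 255 ± 70.8 labelled WT, above Apcs in both groups and, among libraries labelled KO, above the mean of Orm1. The 10 members together took 0.0823% to 0.146% of all counts in libraries labelled KO and 0.0914% to 0.126% in those labelled WT.

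The SD of log2 CPM within groups was 1.09 for Saa1 and 1.03 for Lcn2, at the 98.996th and 98.6th percentile of all tested genes. Among genes within 1 log2 CPM of the same mean level they stood at the 99.8th and 99.9th percentile. Saa2, Orm3 and Orm2 were at the 99.5th, 99.1st and 98.4th percentile among genes of like level. Orm1 and Apcs were at the 96.6th and 95.04th, and Saa4 and Crp at the 89.6th and 87.6th. Saa3 was the exception, at the 59.7th percentile among the low-count genes around it. By this SD pooled over the groups, the inducible Saa1, Saa2, Orm genes and Lcn2 varied most. By the same pooled SD the constitutive Saa4 and the weakly responding Crp varied least of the more abundant members. Against Orm1 and Apcs this held among livers labelled KO alone. The SDs there were 0.661 for Orm1 and 0.468 for Apcs, against 0.188 for Saa4 and 0.208 for Crp. Among livers labelled WT the order was reversed, with 0.260 for Orm1 and 0.229 for Apcs, below 0.351 for Saa4 and 0.402 for Crp.

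**Figure D3:**
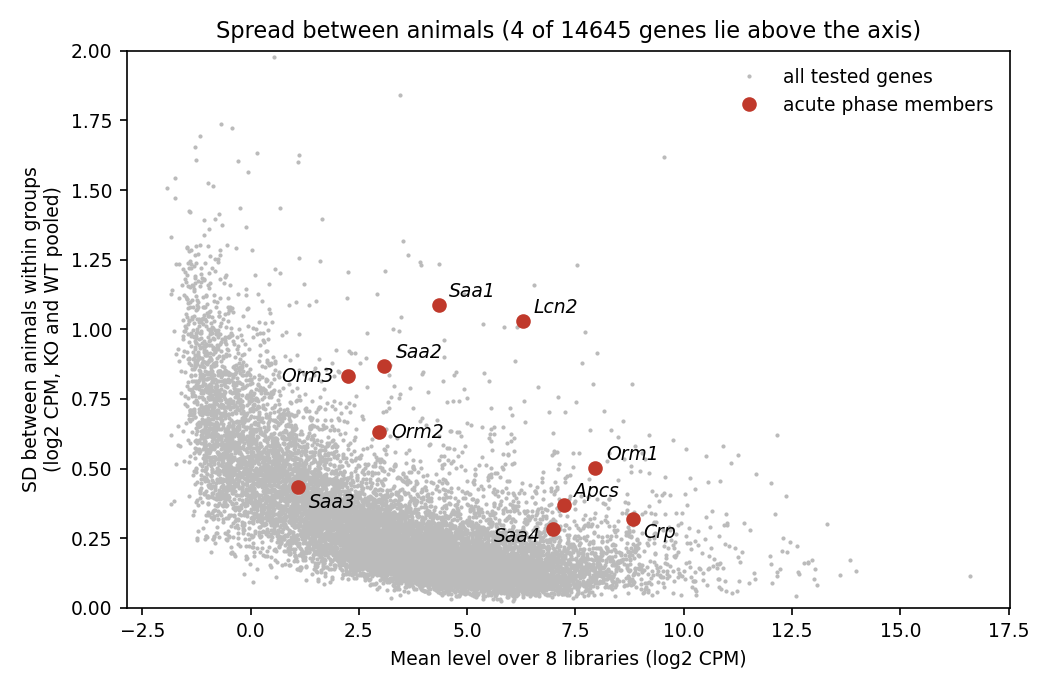
SD of log2 CPM between animals of 1 group (pooled over KO and WT) against mean log2 CPM over the 8 libraries, for all 14645 tested genes in grey and the acute phase genes in red. Saa1, Lcn2, Saa2, Orm3 and Orm2 lie above nearly all genes of like level, and Saa3 lies inside the cloud; 4 genes lie above the axis.

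The livers that were high in 1 member were often high in others, though not for every pair. KO replicate 2 was the lowest of its group for 7 of the 10 members and WT replicate 1 the highest of its group for 7. Among livers labelled KO, replicate 1 was highest for Saa1, Saa2, Saa4, Orm3 and Lcn2, and replicate 3 for Orm1, Orm2, Apcs and Crp. Once group means were removed, the deviations of Saa1 and Lcn2 had a Pearson correlation of 0.937 over the 8 libraries, those of Saa1 and Saa2 0.868 and those of Orm1 and Orm2 0.878. Crp stood outside, with 0.0761 against Saa1 and −0.358 against Saa2, and its highest was 0.593 against Apcs. Some pairs without Crp were also low, with 0.0693 for Saa3 and Orm1, 0.0679 for Saa3 and Apcs, and 0.265 for Saa4 and Orm1. These points share their libraries and depth, the near copies can share reads, and the correlations are given as descriptions.

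**Figure D4:**
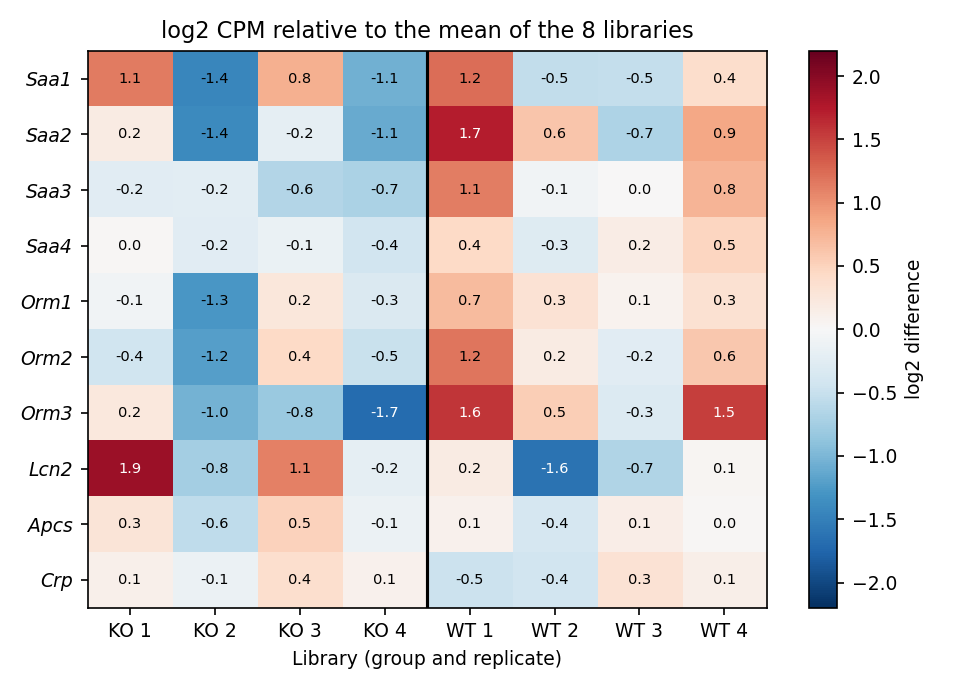
Log2 CPM of each acute phase gene relative to its mean over the 8 libraries, with KO replicates 1 to 4 left of the line and WT replicates 1 to 4 right of it. Red marks livers above the mean and blue those below; KO replicate 2 is blue in every row and WT replicate 1 is red in every row but Crp.

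The ratio of Lcn2 to Saa1 within a liver varied less between animals of 1 group than either gene did. Lcn2 was at 6.49, 6.18, 4.84 and 7.02 times the CPM of Saa1 in libraries labelled KO and at 1.86, 1.82, 3.51 and 3.06 times in those labelled WT. The groups did not overlap, although neither gene was called alone. Of the 9 ratios of Lcn2 to another member, 6 did not overlap between groups, those to Saa1, Saa2, Saa3, Orm1, Orm2 and Orm3, each higher in every library labelled KO. Among all pairs of tested genes counted in every library, 11.3% had ratios without overlap. The ratio to Saa2 ran from 14.7 to 30.7 labelled KO and from 2.0 to 9.48 labelled WT, that to Orm3 from 20.6 to 64.2 and from 3.80 to 13.3, and that to Orm1 from 0.341 to 1.23 and from 0.0818 to 0.259 in the same order. For Saa3 the gap was small, 26.3 to 166 labelled KO against 12.9 to 23.8 labelled WT. The ratios to Saa4, Apcs and Crp overlapped. Of all 45 pairs of members 7 did not overlap, the other being Orm1 over Apcs, at 0.991 to 1.46 labelled KO and 1.58 to 2.66 labelled WT. The 6 ratios share Lcn2 and their pairs were found after the values were seen, so they are not independent of each other and carry no test. The count of ratios of Lcn2 without overlap was 6 of 9 in the 4-digit series and 6 or 7 with any 1 library left out. Smaller groups overlap less readily. The share over all pairs of genes was not taken at these group sizes, and the 11.3% does not apply to them. In the series 98 to 100 the group labelled WT is 1 library, so the count there is left out.

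**Figure D5:**
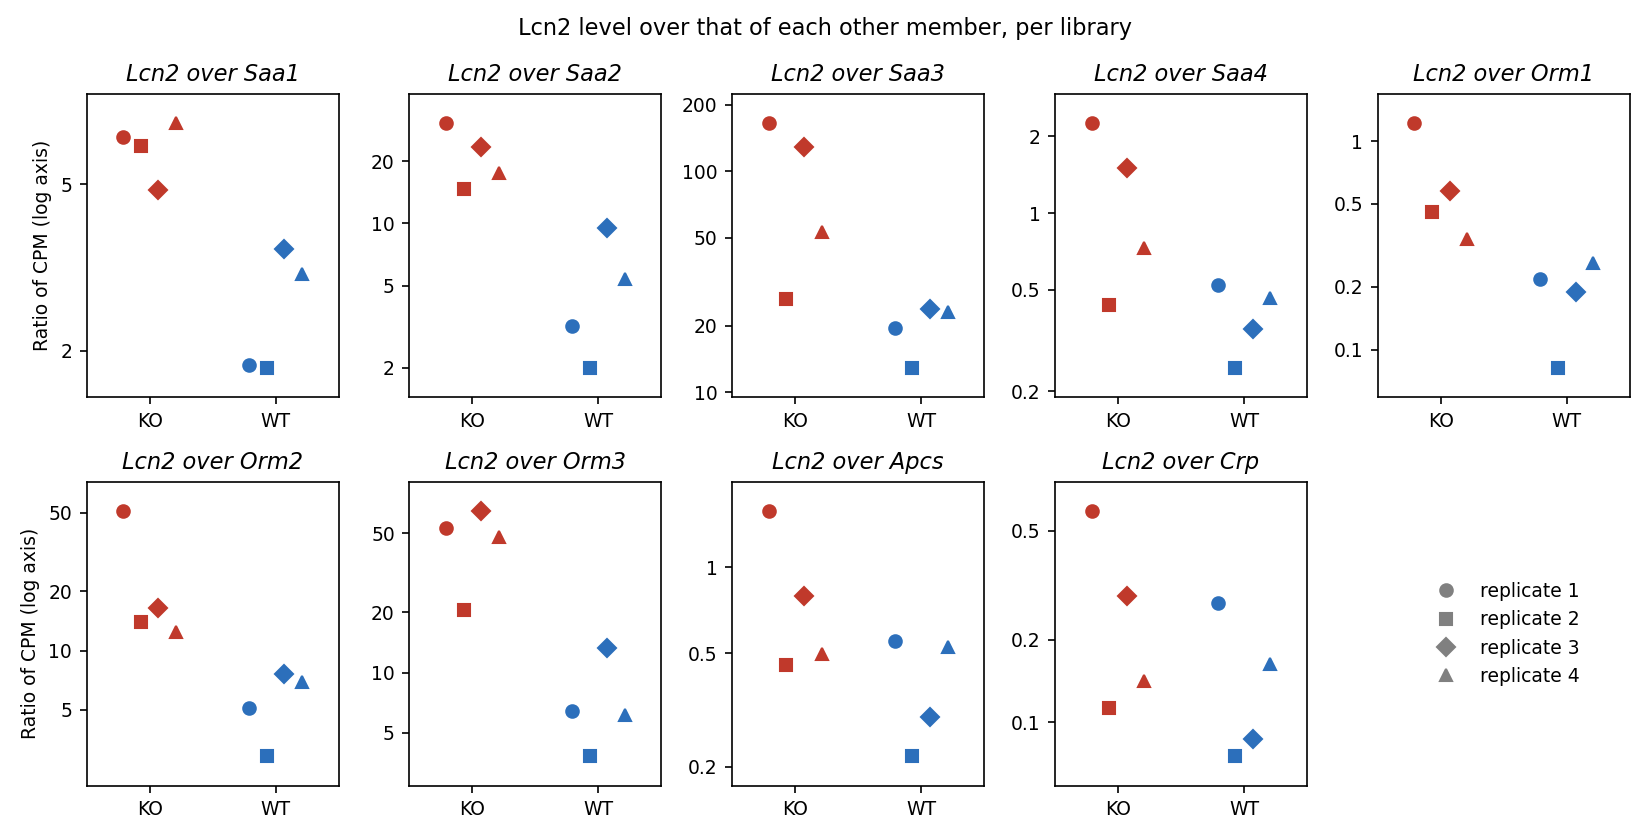
Ratio of the CPM of Lcn2 to that of each other acute phase gene in each library, on log axes, KO left and WT right in each panel, with marker shape giving the replicate. In the panels for Saa1, Saa2, Saa3, Orm1, Orm2 and Orm3 all points labelled KO lie above all points labelled WT, and in those for Saa4, Apcs and Crp the groups overlap.

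The promoter windows were searched on both strands for short forms of motifs of the factors named above. The C/EBP motif was spelled TTGCNNAA, and 9.56% of the 32851 RefSeq promoter windows of the same 250 bases held it. It was present in 7 of the 9 members with a window: Saa1, Saa2, Saa3, Saa4, Orm2, Orm3 and Lcn2. These matches are not all separate, as the windows of Saa1 and Saa2 were 94.8% identical and those of Orm2 and Orm3 85.5%. No window of Orm1 was used. In Saa1 and Saa2 the match was the same, TTGCACAA, starting 182 and 183 bases before the start. Orm3 held the same 8 letters and Orm2 held TTGCGCAA, at 121 and 120 bases before the start. In Lcn2 the match was TTGCTCAA, 216 bases before the start. The STAT3 motif TTCNNNGAA, found in 7.02% of all windows, matched in Apcs alone. Short consensus motifs of NF-kB and of the glucocorticoid receptor, held by 1.41% and 0.387% of all windows, matched in no member. The match in Orm2 reads the same on both strands, no matches of different motifs overlapped, and a match says only that the letters are present. The 3′ untranslated regions of 8 members were short, 113 to 232 bases, with no ATTTA. Crp held 3 in 935 bases and Saa4 held 1 in 1524 bases. By comparison 65.9% of 12633 tested genes with an annotated 3′ untranslated region held at least 1, at a median length of 967 bases.

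The signals upstream of these genes were examined from lists of named genes. Of 10 cytokines that induce the acute phase, 4 were counted highly enough to test and none was called by edgeR, DESeq2 or limma-voom, with 2 at an unadjusted p under 0.05 and a median log2 fold change of 0.11; Il6, Tnf, Osm, Lif and Il11 were each under 0.3 CPM in every library and Il22 had no counts. The 2 with the smallest p were the gp130 cytokines Clcf1 (log2 fold change 0.68, edgeR adjusted p = 0.107) and Ctf1 (0.35, edgeR adjusted p = 0.246). Il1a and Il1b, also tested, had negative log2 fold changes of −0.13 and −0.54 (edgeR adjusted p = 0.794 and 0.604). Of 11 cytokine receptor genes (median 0.08) 1 was called by edgeR. Il1rap, the accessory chain of the interleukin 1 receptor, fell. It was at 98.4, 107, 94.0 and 95.4 CPM labelled KO and at 151, 170, 168 and 160 CPM labelled WT (log2 fold change −0.71, SE 0.09, edgeR adjusted p = 0.000735). The groups were well apart, and Il1rap was called in all 18 alternatives. Il6ra and Il6st, the receptor chains for interleukin 6, had log2 fold changes of 0.14 and 0.04.

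None of 10 genes of JAK and STAT3 signalling (median log2 fold change 0.21, 2 at an unadjusted p under 0.05) was called by edgeR or limma-voom, and DESeq2 called 1, Socs3. Socs3, a STAT3 target that feeds back on the receptor, was at 22.4, 10.6, 18.6 and 24.0 CPM labelled KO and at 8.24, 5.75, 11.3 and 10.8 CPM labelled WT, and KO replicate 2 alone lay inside the WT range (log2 fold change 1.07, SE 0.28, edgeR adjusted p = 0.0677). Socs3 was called in 4 of 18 alternatives. Stat3 itself was at 231, 105, 158 and 134 CPM labelled KO and 137, 134, 113 and 124 CPM labelled WT, highest in the same library as Lcn2 (log2 fold change 0.31, edgeR adjusted p = 0.486). Tyk2, a JAK kinase, had a log2 fold change of 0.41 (edgeR adjusted p = 0.209), and without WT replicate 3 it was 0.63 and called (edgeR adjusted p = 0.00659). None of 14 C/EBP and NF-kB genes (median 0.05, 1 at an unadjusted p under 0.05) was called by edgeR or limma-voom, and DESeq2 called 1, Nfkbia. This gene, whose product inhibits NF-kB, had −0.53 (edgeR adjusted p = 0.0738, called in 6 of 18 alternatives) and Cebpb −0.27 (edgeR adjusted p = 0.314). Of 10 genes of the glucocorticoid receptor and its targets (median −0.16) 1 was called. Tsc22d3, a leucine zipper gene induced by the receptor, fell (62.6 to 102 CPM labelled KO and 123 to 221 CPM labelled WT, log2 fold change −0.98, SE 0.22, edgeR adjusted p = 0.0421), and the call was lost in 8 of 18 alternatives. Of the 14 receptors and binding partners of the acute phase proteins, 12 were tested (median 0.04, 1 at an unadjusted p under 0.05) and none was called by edgeR, DESeq2 or limma-voom, including Slc22a17, a receptor for lipocalin 2 (0.81, edgeR adjusted p = 0.132), and the gelatinase gene Mmp9, whose product forms a complex with it (−0.90, edgeR adjusted p = 0.324).

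By edgeR 1 of 24 other positive acute phase genes rose and 1 fell, around a median of 0.04 on the log2 scale; DESeq2 called 2 in each direction. Hpx, the haem scavenger hemopexin, fell to 547 to 880 CPM labelled KO, against 2864 to 4261 CPM labelled WT (log2 fold change −2.29, edgeR adjusted p = 1.85e-05). Itih3, a hyaluronan-binding plasma protein gene, rose to 1906 to 3040 CPM labelled KO, against 1503 to 1827 CPM labelled WT (0.57, edgeR adjusted p = 0.0412), a call lost in 7 of 18 alternatives. Of 12 negative acute phase genes, which are lowered in inflammation, Hrg, histidine-rich glycoprotein, fell (775 to 805 CPM labelled KO and 1132 to 1240 CPM labelled WT, log2 fold change −0.61, edgeR adjusted p = 0.00341). The other 11 did not pass, their list's median was −0.13, and DESeq2 called 3 lower.

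Whole liver holds several cell types, and from these libraries fewer cells of a type and less RNA per cell cannot be told apart. Of 10 hepatocyte markers 0 were called by edgeR and limma-voom and 1, Apob, by DESeq2, with 2 at an unadjusted p under 0.05. Their summed level was 121262 to 143974 CPM labelled KO and 135740 to 151016 CPM labelled WT. Of 12 macrophage markers 0 were called by edgeR, DESeq2 or limma-voom and 0 had an unadjusted p under 0.05, with sums of 529 to 667 CPM labelled KO and 499.96 to 613 CPM labelled WT. The 12 neutrophil markers were near the floor. Their summed level was 2.50 to 4.95 CPM labelled KO and 3.05 to 10.2 CPM labelled WT. Camp, Ltf and Mpo were each under 0.4 CPM in every library. Camp was at 0 in every library labelled KO and in WT replicates 2 and 4. Ly6g went the other way, with 1 to 3 counts in libraries labelled KO and 0 in every library labelled WT. Elane had a mean of 0.159 CPM labelled KO and 0.113 CPM labelled WT. None of the 5 tested was called by edgeR, DESeq2 or limma-voom (1 at an unadjusted p under 0.05), and all 5 had negative log2 fold changes. Neutrophils are a rich source of lipocalin 2. Of 12 bile duct markers 9 of the 11 tested rose, among them Tspan8 (log2 fold change 3.03) and Epcam (2.04; edgeR adjusted p = 0.000153 and 0.000902). Their summed level was 332, 347, 402 and 412 CPM in KO replicates 1 to 4 and 203, 196, 219 and 207 CPM in WT replicates 1 to 4. KO replicate 1, the highest for Lcn2, had the lowest bile duct sum of its group, and the part of bile duct cells in the ratios of Lcn2 was not tested. Of 8 adipocyte markers 3 were tested and none was called by edgeR, DESeq2 or limma-voom (0 at an unadjusted p under 0.05). Their sums were 16.9 to 20.7 CPM labelled KO and 18.7 to 22.2 CPM labelled WT, Retn and Lep were at 0 in every library, and Adipoq and Plin1 were under 0.2 CPM in every library.

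Of the genes next to the members 7 were tested and 1 was called. Saal1 and Hps5, on either side of the Saa cluster, had log2 fold changes of 0.18 and 0.01, and Akna beside Orm2 −0.11 (edgeR adjusted p = 0.664, 0.992 and 0.837). Col27a1, a fibrillar collagen gene before Orm1, rose (18.7 to 29.3 CPM labelled KO and 8.15 to 13.1 CPM labelled WT, log2 fold change 0.999, SE 0.17, edgeR adjusted p = 0.00684), in the direction opposite to the sign of Orm1. Ciz1 and Ptges2 beside Lcn2 had 0.10 and −0.17, Dusp23 before Crp 0.05, and Fcer1a beyond Apcs had no counts.

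Among 11768 other tested genes, those whose log2 CPM over the 8 libraries was most like the mean of Saa1, Saa2 and Saa3 were Ccl25, Lnpk and Cetn3 (Pearson r = 0.956, 0.951 and 0.934). For the Orm genes they were Ell, Nub1 and Cd302 (0.986, 0.982 and 0.947). For Lcn2 they were Mier2, C8b, which encodes a chain of complement component 8, and Tnip2 (0.963, 0.959 and 0.955). All points come from the same 8 libraries, and each gene is the highest of many candidates. Ranked by Spearman rho instead, 1, 1 and 2 of the 3 genes were the same for Saa, Orm and Lcn2, and ranked by Pearson r of the deviations from group means 0, 1 and 2.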

How the data were processed

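Per the labels' protocols, liver RNA was enriched for mRNA and made into strand-specific libraries. The authors deposited unnormalised read counts, 1 column for each of the 8 libraries. Per the submitters' processing notes they used bcl2fastq 2.19.1, GSNAP and featureCounts 1.5.1. Per the file headers, reads were counted by strand on mm10 without an option for multi-mapping or multi-overlapping reads, so such reads are left out. No member shares exon bases with another gene on its strand. Rows for 92 spike-ins held 0 counts and were dropped, and 45143 identifiers could be given a symbol.

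From these counts, edgeR 4.0.16 (R 4.3.3) gave TMM-scaled CPM and, after filterByExpr with a minimum count of 10, the robust quasi-likelihood test, Benjamini-Hochberg adjusted over 14645 genes and called at 0.05. Log2 CPM used a prior count of 2. Fold change intervals are unadjusted 95% confidence intervals of the fold change between the groups, and their width depends on the spread between animals. The code was tested on simulated counts. Every pair of replicates differed beyond sampling noise (smallest chi-square per degree of freedom 15.6). Same-numbered replicates were not treated as pairs.

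Alternatives were RLE and upper quartile scaling, no filter, a filter of 1 CPM in 4 libraries, DESeq2 1.42.0, limma-voom 3.58.1, a replicate block, the animal-number series as a covariate, each series alone, and each library left out. The Lcn2 ratios within each series and without each library, and levels per kilobase of main transcript, were added after seeing the data. Promoter windows are from RefSeq (GRCm38.p6), and transcript windows, coding identity and 3′ untranslated regions from GENCODE transcripts of GRCm38. The members and all gene lists were chosen with earlier results of these data known. Genes named besides the members are Elavl1, up to 4 called genes of each list in order of p (2 for marker lists) or else the 2 with the smallest p, the 3 genes most like each family, and the flanking genes. Il1a, Il1b, Il6ra, Il6st, Stat3, the genes given as near 0 and the flanking genes of Lcn2 were added after their values were seen.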

Additional observations from a re-analysis of the deposited data

Results flagged for a closer look

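Among 98 groups of 4 libraries examined, for 49 tested genes, 3 held 1 library far from the other 3, where chance alone gives about 1 in 20. The 49 were the members, Elavl1, the genes picked from each list, the genes most like each family and the flanking genes. Some picked from the marker lists are not named in the report, and Il1a, Il1b, Il6ra, Il6st and Stat3 were not examined. None of the 3 was in an acute phase reactant described here. Tyk2 was at 26.2 CPM in WT replicate 3, against 15.8 to 16.1 CPM in the other libraries labelled WT, and so lay with the libraries labelled KO. Apob was at 11042 CPM in WT replicate 3, against 9463 to 9504 CPM in the others labelled WT. Ctf1 was at 6.45 CPM in WT replicate 2, against 5.39 to 5.55 CPM in the others labelled WT.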

How the results depend on the processing

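In 18 alternatives, Saa2, Orm1, Apcs and Crp were never called, Saa1, Orm2 and Lcn2 were called in 1 each and Saa3, Saa4 and Orm3 in 2 each. No alternative turned the direction of Saa3, Saa4, Orm1, Orm3 or Lcn2. By DESeq2 Saa3 (−0.98) and Orm3 (−1.67) were called, 2 members lower in all. Within the 4-digit series Orm2 (−1.48) was called, 1 member lower, and Apcs turned to −0.0045. Within animals 98 to 100, 3 libraries with 1 residual degree of freedom, Saa4 (−0.45, 1 member lower), Saa1 (0.66) and Lcn2 (1.26) were called, 2 members higher, and the direction turned for Saa1, Saa2 (0.0875), Orm2 (0.29), Crp (−0.0916), Tyk2 (−0.0183), Adrb3 (−0.35), Cetn3 (0.0488), Hps5 (−0.38), Akna (0.0153), Dusp23 (−0.0079) and Ciz1 (−0.0849). With the series as a covariate Saa1 (0.10) and Hps5 (−0.0733) turned. Leaving out 1 library gave −0.56 to 0.41 for Saa1 (without KO replicate 1 and WT replicate 1), −1.67 to −0.89 for Saa2 (highest without WT replicate 1), −0.85 to −0.41 for Orm1 (highest without KO replicate 2), −1.19 to −0.53 for Orm2 (highest without WT replicate 1), 0.63 to 1.52 for Lcn2, 0.0689 to 0.35 for Crp, −1.13 to −0.71 for Saa3, −0.55 to −0.32 for Saa4, −2.14 to −1.41 for Orm3, −0.081 to 0.25 for Apcs, −0.0033 to 0.29 for C8b, −0.0872 to 0.22 for Hps5, −0.24 to 0.0195 for Akna and −0.0154 to 0.14 for Dusp23, with 0 to 2 members called lower. Over all genes, edgeR called 340 higher and 201 lower, DESeq2 613 and 495, the 4-digit series 215 and 159, the series 98 to 100 474 and 528, the series covariate 416 and 308, and the fit with no filter 499 and 328. The fits with 1 library left out called 151 to 710 higher and 71 to 534 lower, lowest without WT replicate 2 and highest without WT replicate 3. The causes were not tested.

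Same-numbered libraries correlated between −0.147 and 0.122 in their deviations and share only a number. With the replicate block 0 members were called, Lcn2 had 1.04 and Orm3 −1.62, and 353 genes were higher and 211 lower. The spread between animals limits Saa1 and Lcn2, and 34 to 124 reads per library limit Saa3.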
